A study of Sus scrofa with 3 samples.

Results

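The genes of RNA splicing factors were followed over 3 stages of tooth germ development in Wuzhishan miniature pigs. They were chosen by symbol alone: SRSF or SFRS, SF3A or SF3B, SNRP, HNRNP or HNRP, PRPF, U2AF, and LSM or RBM followed by a digit. Of 6765 genes that the platform table names by a single symbol, 81 carried such a symbol, on 131 of the 23999 probe sets analysed. The brightest probe set by mean log2 signal stood for each gene. The 81 genes comprised 11 of SR proteins, 16 of snRNP and LSM proteins, 9 of SF3 and U2AF, 9 of PRPF proteins, 17 of hnRNP proteins and 19 of RBM proteins. The germs of the last deciduous molar, with the dental lamina, had been pooled from the mandibles of 1 litter at each stage, and each pool gave RNA for a single Affymetrix Porcine Genome Array. The groups were E40 (embryonic day 40, cap stage, before a secondary dental lamina), E50 (bell stage, in which the secondary dental lamina starts) and E60 (secretory stage with that lamina present, called late bell stage in the study's methods). No treatment is given for any group. Each stage is a single litter on a single array, so stage, litter, pool and array cannot be told apart. In such pools, fewer cells of a type and less RNA per cell cannot be told apart either.

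Splicing removes introns from newly made transcripts. The spliceosome that does this is built on small nuclear ribonucleoproteins (snRNPs), in which rings of Sm or LSM proteins hold a small RNA, and on SF3 and U2AF proteins, which recognise the branch point and the end of the intron. PRPF proteins act in several of its parts, many of them in the tri-snRNP that joins later and in the catalytic complexes. SR proteins and hnRNP proteins bind exons and introns and in the main favour or oppose the use of nearby splice sites, and the RBM symbol covers RNA-binding proteins of many kinds. The array reads the level of a transcript near its end and does not read which exons were joined, so nothing here measures splicing itself.

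Values are MAS 5.0 signals, which the authors scaled to the same mean on each array and deposited as log2 values. Each array has a floor at its 25th percentile (29.3 for E40, 17.2 for E50 and 21.8 for E60), to which signals under it were raised. Differences over 2-fold are called higher or lower. With 1 array a stage there is no spread between replicates and no p-value, and a difference is one between single pools. The E50 array had 720 probe sets at the lowest deposited value, against 380 on E40 and 439 on E60. The summed signal of the enamel genes AMBN, AMELX, ENAM and MMP20, taken as markers of the enamel organ and ameloblasts, was 147.8 (E40), 5132.1 (E50) and 59202.3 (E60). AMELX and ENAM were under the floor on E40. The summed signal of 14 skeletal muscle markers was 43106.0, 959.4 and 3667.2, of which MYL1 alone gave 7116.4, 481.2 and 3266.3, and all 14 were below E40 on E50. All 81 splicing factor genes lay above the floor on every array, and 79 lay above the median signal of every array. Signals of different probe sets depend on their probes and do not rank the genes. Where 3 signals are given without stage names, they are those of E40, E50 and E60 in that order.

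Few splicing factor genes differed much between the stages. The ratio of the highest to the lowest of the 3 signals was under 1.5-fold in 65 of the 81 genes (80.2%) and over 2-fold in 2 (2.47%), and its median was 1.29-fold. Among all 5743 genes with every signal above the floor, it was under 1.5-fold in 61.6% and over 2-fold in 14.6%, with a median of 1.39-fold. Leaving out the RBM class and LSM12 and LSM14A, whose main known roles are not all in splicing, left 60 genes, of which 48 were under 1.5-fold and 2 over 2-fold.

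The 2 genes over 2-fold were HNRNPU and LSM6. From E40 to E50, HNRNPU was the 1 gene of 81 that was lower and none was higher, where 7.98% of all 6192 measured genes were lower and 2.73% higher. From E50 to E60, LSM6 was the 1 lower gene and none was higher, where 1.75% of all genes were lower and 4.37% higher. From E40 to E60, HNRNPU alone was lower and none was higher, against 7.21% and 4.44% of all genes. Most of the 81 are bright, with 80 above the median probe set in mean signal. Of all genes this bright, 6.04% were called either way from E40 to E50, 3.37% from E50 to E60 and 7.99% from E40 to E60, against 1.25% of the 80 in each pair. The 3 pairs share arrays, so they are not independent of each other.

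Over all 81 genes, signals on E60 were lower than at the other stages more often than not. From E50 to E60, 24 of 81 (29.6%) were above 0, against 46.0% of all genes, and the median was -0.17 against -0.04. From E40 to E60, 25 of 81 (30.9%) were above 0, against 49.5%, and the median was -0.13 against -0.01. The lowest of the 3 signals was that of E60 in 44 genes, of E40 in 24 and of E50 in 13. The direction from E40 to E60 turned when the arrays were set to equal medians, where 60 of 81 were above 0, and 4483 of 6197 measured genes. This scaling moved all genes alike by 0.31, so it cannot change how far the median of the 81 lies from that of all genes (-0.12). Quantile normalization can change that distance, which was then -0.24. From E40 to E50, 47 of 81 (58.0%) were above 0, against 53.1% of all genes, with a median of 0.05. After quantile normalization 38 of 81 were above 0, against 3865 of 6192 measured genes. Of all genes above the median mean signal, 60.4% were above 0 from E40 to E50 as deposited, with a median of 0.11. From E50 to E60 41.3% of them were, and from E40 to E60 52.7%. Of the 80 splicing factor genes this bright, 58.8% (median 0.06), 30.0% and 31.2% were above 0 in these pairs. At 1.5-fold, 2 genes (2.47%) were higher and 5 (6.17%) lower from E40 to E50, against 9.58% and 16.8% of all genes. From E50 to E60, 2 (2.47%) were higher and 4 (4.94%) lower, against 11.0% and 6.77%. From E40 to E60, 2 (2.47%) were higher and 7 (8.64%) lower, against 11.8% and 15.9%. Of all genes above the median mean signal, 9.86% were higher and 9.51% lower from E40 to E50. These shares were 6.71% and 5.81% from E50 to E60, and 11.5% and 11.3% from E40 to E60.

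**Figure D1:**
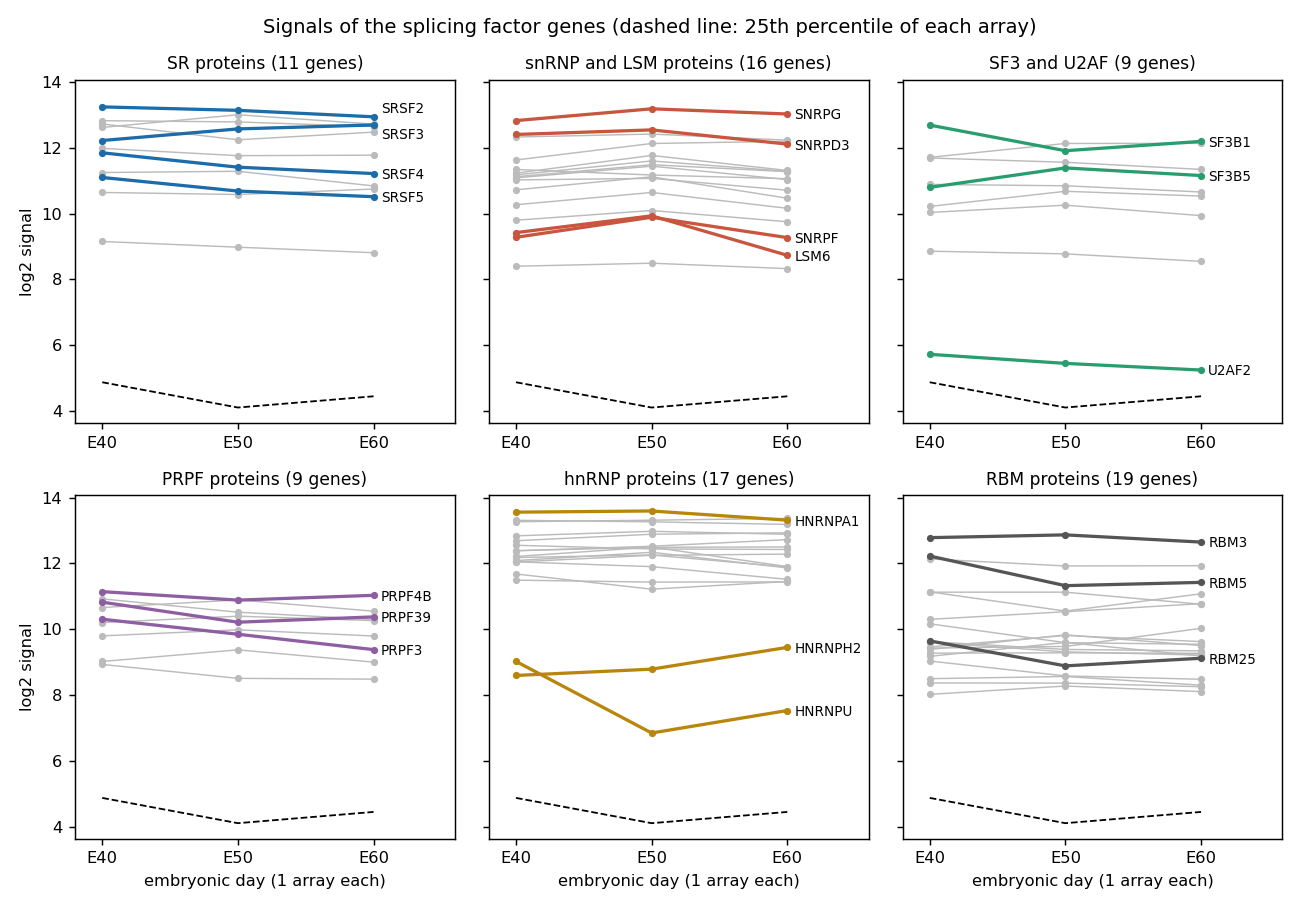
Log2 signals (vertical axis) of the 81 splicing factor genes against stage (horizontal axis, 1 array per stage) in 6 panels by class. There is 1 line per gene, coloured and labelled for a selection of genes and grey for the others. Dashed lines mark the floor. Most lines are nearly flat, and HNRNPU drops from 519.9 on E40 to 115.0 on E50.

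HNRNPU encodes a large hnRNP protein that binds RNA and chromatin. Its single probe set read 519.9 (E40), 115.0 (E50) and 184.7 (E60). It fell 4.52-fold from E40 to E50 and was still 2.81-fold below E40 on E60. The E60 signal was 1.61-fold over that of E50, which is not a call. The call rests on 1 probe set, whose place in the transcript was not analysed here, and no other hnRNP gene moved by over 1.5-fold from E40 to E50. The 14 muscle markers given above and 4 of 5 measured markers of keratinised epithelium were below E40 on E50 as well. Their part in the fall of HNRNPU was not tested.

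LSM6 encodes a subunit of the LSM rings, which bind U6 small nuclear RNA in the nucleus and take part in mRNA decay in the cytoplasm. Its brightest probe set read 685.8 (E40), 976.5 (E50) and 425.2 (E60), so it fell 2.3-fold from E50 to E60. The other probe sets of LSM6 did not follow it. A second one, nearly as bright on average, read 797.0, 562.4 and 550.7 on E40, E50 and E60, which is highest on E40 and level between E50 and E60. The remaining one was dim, from 43.8 on E40 to 19.2 on E60, the latter under the floor. The call of LSM6 therefore depends on which of its probe sets is taken.

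Genes of snRNP and LSM proteins stood above most other genes from E40 to E50 and below them from E50 to E60. From E40 to E50 their median log2 fold change was 0.36, with quartiles at 0.13 and 0.44, where that of all genes was 0.04 with quartiles at -0.35 and 0.32. Log2 fold changes were above 0 in 15 of 16 genes, against 53.1% of all genes, and 1 of 16 passed 1.5-fold upward, against 9.58% of all genes. Of all genes above the median mean signal, 60.4% were above 0, with a median of 0.11, and 9.86% passed 1.5-fold upward. From E50 to E60 the median was -0.35, against -0.04 for all genes, and 15 of 16 were below 0. Of all genes, 46.0% were above 0 in this pair, and 41.3% of those above the median mean signal. Both comparisons use the E50 array, and 14 of 16 genes had their highest signal on it, against 36.7% of all genes with every signal above the floor. The pair that does not use it, E60 versus E40, had a median of -0.06 and 5 genes above 0.

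The direction from E40 to E50 held for the median under each scaling of the arrays, with fewer genes under 2 of them. The class median minus the median of all genes was 0.32 on the deposited scale and 0.16 after quantile normalization. After quantile normalization 12 of 16 genes stood above 0, as they did when the arrays were scaled to housekeeping genes, and with the arrays at equal medians all 16 did. Of all 6192 measured genes, 3865, 2806 and 4737 stood above 0 under these 3 scalings in that order. From E50 to E60 the class median minus that of all genes was -0.31 as deposited and -0.26 after quantile normalization. Over all 22 probe sets of the class, 17 were above 0 from E40 to E50, where 41.0% of all probe sets were, and 3 were above 0 from E50 to E60, where 53.0% were. With 1 probe set a gene, 53.1% of all genes were above 0 from E40 to E50. The 22 include the 16 already counted, so they are no separate support. From E40 to E50 the added ones were mostly below 0. LSM12 stood at -0.37, LSM6 at -0.50 and -0.81 and SNRPA1 at -3.14, against 0.02 for SNRPG and 0.56 for SNRPN.

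The Sm proteins form the ring shared by the U1, U2, U4 and U5 snRNPs. SNRPF, encoding Sm protein F, read 621.4 (E40), 948.4 (E50) and 617.3 (E60), the only signal of the class past 1.5-fold upward from E40 to E50. SNRPG, the gene of Sm protein G, read 7265.5 (E40), 9313.7 (E50) and 8349.6 (E60), while its dim second probe set was level (206.9, 210.5 and 206.8). SNRPB, the gene of the Sm B proteins, read 2314.7 (E40), 3104.2 (E50) and 2493.4 (E60). In each of these the E50 signal was the highest, by 1.53-fold, 1.28-fold and 1.34-fold over E40. SNRPD1 and SNRPD3, for the Sm D proteins, were flatter. SNRPD1 read 5140.8, 5468.9 and 4816.6, with E50 1.06-fold over E40. SNRPD3 read 5424.2, 5971.8 and 4425.9, with E50 1.1-fold over E40. SNRPN, an imprinted gene whose protein can replace Sm B, was the exception of the class. It read 2594.0 (E40), 2309.0 (E50) and 2134.3 (E60), with no call, while its second probe set went the other way (891.9, 1316.2 and 1581.9).

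Genes of proteins particular to single snRNPs also had their highest signal on E50. SNRPA, of the U1 snRNP, read 1234.0, 1597.8 and 1144.7. SNRPC, of the same snRNP, read 2225.8, 2867.3 and 2476.5. SNRPA1, of the U2 snRNP, read 1690.1, 2222.9 and 1416.0 on its brightest probe set, so E60 stood 1.57-fold below E50. SNRPB2, also of the U2 snRNP, was nearly level from E40 to E50 and lowest on E60 (2082.7, 2150.1 and 1676.1). A second SNRPA1 probe set contradicted the first and read 304.7, 34.5 and 65.3, which is 8.82-fold below E40 on E50.

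LSM genes gave similar values. LSM2, a subunit of the LSM rings, read 2174.1, 2781.7 and 2097.8, with E50 1.28-fold over E40. LSM3, beside it in the ring, read 2399.9, 3486.3 and 2540.2, with E50 1.45-fold over E40. LSM7, from the same rings, read 890.4, 1092.8 and 862.7. On E60, LSM2 was 1.04-fold lower than on E40, LSM3 1.06-fold higher and LSM7 1.03-fold lower. LSM14A, which acts on stored and decaying mRNA rather than in splicing, stayed at its E50 level and read 3167.9 (E40), 4484.5 (E50) and 4699.3 (E60). LSM12, also outside the rings, read 337.7, 360.0 and 321.3 and was level. Its dimmer second probe set was highest on E40 (130.8, 101.1 and 98.6).

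Markers of cycling cells were highest on E50 in 4 of 5 cases. The summed signal of the 5 named ones (PCNA, TOP2A, CCNB1, MCM2 and MCM5) was 13579.2 (E40), 17385.4 (E50) and 12790.2 (E60), with medians of 0.35 from E40 to E50 and -0.48 from E50 to E60. None of the 5 was called or at the floor. Their part in the snRNP values was not tested.

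**Figure D2:**
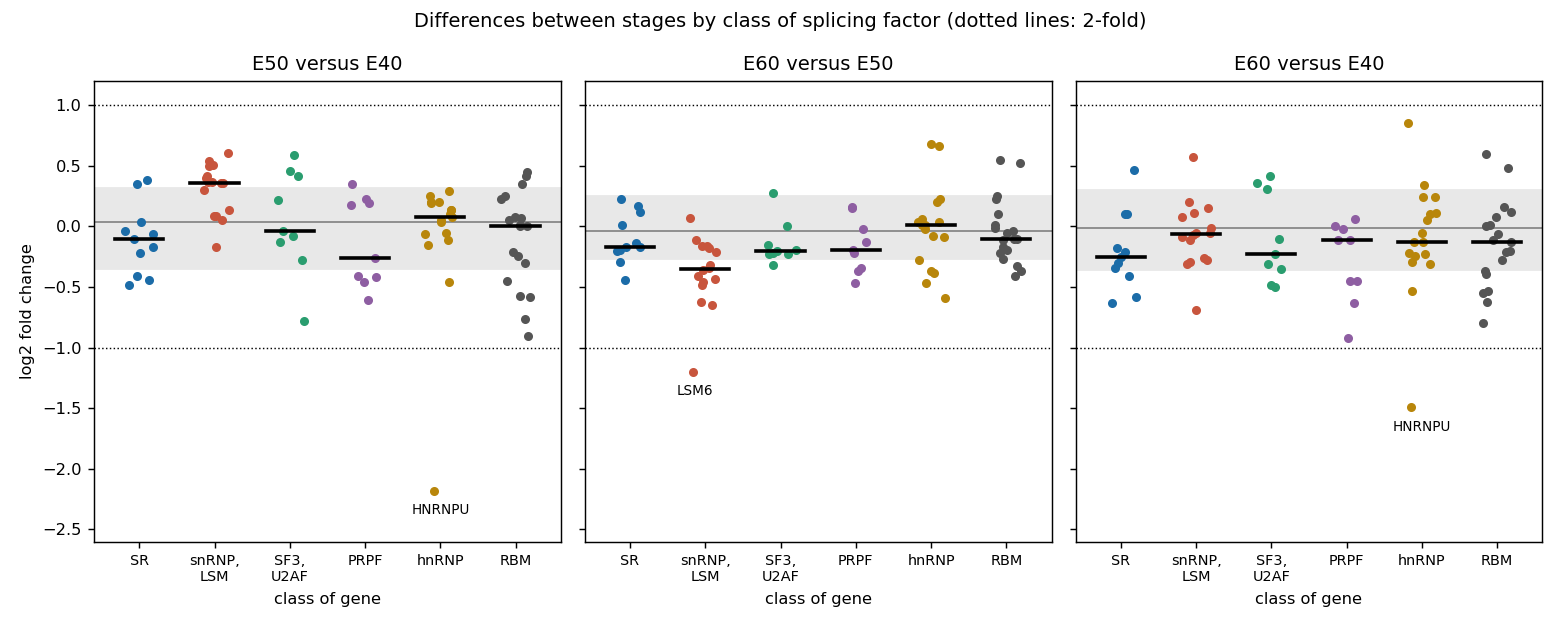
Log2 fold changes (vertical axis) of the splicing factor genes by class (horizontal axis) for the 3 pairs of stages. Points are genes, black bars class medians, the grey line and band the median and quartiles of all genes, and dotted lines mark 2-fold. The snRNP and LSM points lie above 0 from E40 to E50 except SNRPN and below 0 from E50 to E60 except LSM14A, and HNRNPU and LSM6 are the points past 2-fold.

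Genes of SF3 and U2AF proteins split from E40 to E50, with 4 of 9 above 0 and a median of -0.04. SF3B1, the largest subunit of the U2 snRNP part that holds the branch point, read 6608.9 (E40), 3851.7 (E50) and 4687.9 (E60) and was 1.72-fold below E40 on E50. Its second, dimmer probe set was also lower on E50, but had its lowest signal on E60, unlike the first (120.4, 88.4 and 70.0). Other subunits of the same SF3B complex stood on the other side. SF3B5 read 1780.7 (E40), 2679.0 (E50) and 2283.4 (E60), 1.5-fold above E40 on E50, and SF3B6, which touches the branch point, read 3349.2, 4488.1 and 4495.9 and stayed at the E50 level. SF3B2 read 1191.3, 1638.1 and 1481.2, and SF3B4 read 1048.4, 1223.3 and 981.6. Subunits of one complex thus read in opposite directions between these arrays, none of them past 2-fold.

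SF3A genes were flat. SF3A1 read 1892.7, 1840.0 and 1614.0 and SF3A3 3305.3, 3016.9 and 2598.1, and both were lowest on E60. U2AF2, the large subunit that binds the pyrimidine tract before the end of the intron, had the dimmest signal of the 81 genes, close to the floor, at 52.8 (E40), 43.6 (E50) and 37.9 (E60). U2AF1L4, a relative of the small subunit, read 463.7, 438.3 and 374.2. U2AF1 itself, SF3B3, SF3A2, SNRPD2 and SNRPE were not analysed here. From E50 to E60, 7 of 9 genes of the class were below 0, and the median of -0.20 lay 0.17 under that of all genes. With quantile normalization the class stood 0.08 over all genes from E40 to E50, not 0.08 under them.

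Genes of PRPF proteins were the lowest class from E40 to E50 by median (-0.26), although 4 of 9 were above 0 and none was called. PRPF39, a U1 snRNP factor, was 1.53-fold below E40 on E50 and read 1811.0 (E40), 1187.1 (E50) and 1328.3 (E60). PRPF3 and PRPF4 belong together to the U4/U6 snRNP. PRPF3 read 1264.6 (E40), 921.5 (E50) and 666.5 (E60) and PRPF4 1941.8, 1465.9 and 1257.8, so both had lower signals at each later stage, by 1.9-fold and 1.54-fold from E40 to E60. These were the only genes of the class past 1.5-fold from E40 to E60, where 15.9% of all genes were lower and 11.8% higher by that much.

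The other PRPF genes had smaller differences on their brightest probe sets. PRPF19, the ubiquitin ligase at the centre of the complex named after it, read 1618.4, 1900.5 and 1498.1, and PRPF31, a U4/U6 protein, 519.2, 663.2 and 511.9. PRPF18, a factor of the last step of splicing, read 890.0, 1011.7 and 887.7. PRPF38A, needed to activate the spliceosome, read 1178.9, 1347.7 and 1228.3 and its relative PRPF38B 487.6, 363.7 and 357.8, which were opposite in sign from E40 to E50. PRPF4B, a kinase that phosphorylates splicing proteins, read 2260.4, 1891.4 and 2092.2.

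Genes of SR proteins were lower on the later stages in the main, none by 2-fold. From E40 to E60, 8 of 11 were below 0, where 49.5% of all genes were above 0, and the median was -0.25 against -0.01 for all genes. Only 1 of 11 (9.09%) was lower by over 1.5-fold, no larger a share than the 15.9% of all genes. The class median stood 0.24 under that of all genes as deposited and 0.41 under it after quantile normalization. With the arrays at equal medians 7 of 11 were above 0, where 4483 of 6197 measured genes were. Over the 26 measured probe sets of the class 5 were above 0, against 42.0% of all probe sets. Probe sets of the same gene are not independent, and all 6 of SRSF6 and all 5 of SRSF11 were below 0. SRSF4, a large SR protein, read 3685.2 (E40), 2722.4 (E50) and 2380.2 (E60) and was 1.55-fold lower on E60 than on E40. SRSF5, of similar build, read 2191.4, 1646.3 and 1461.9. SRSF6, a close relative of both, read 2433.1, 2496.9 and 1834.7 and was level until E50. All 6 probe sets of SRSF6 were lower on E60 than on E40, with E60 at 1005.4 to 1834.7 and E40 at 1436.2 to 2433.1.

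Among the other SR genes the values differed by gene. SRSF2, an activator of many exons, read 9697.1, 9019.6 and 7869.1, a range of 1.23-fold. SRSF7, which also takes part in mRNA export, read 7255.0, 7063.4 and 6406.1, a range of 1.13-fold. SRSF1, the founding member, had a range of 1.17-fold (4047.5, 3471.2 and 3506.5). SRSF3, the smallest SR protein, was the only one with a higher signal at each later stage, at 4776.1 (E40), 6097.2 (E50) and 6628.1 (E60). SRSF9 was highest on E50 (6293.4, 8216.8 and 6743.8), but its dim second probe set was highest on E60 (185.6, 183.8 and 254.2). SRSF11, a more distant member, read 6765.1, 4847.5 and 5697.0, lowest on E50, and its other 4 probe sets were also below E40 on E50. SRSF10, which represses splicing when dephosphorylated, read 1598.4, 1530.3 and 1718.2 on its brightest probe set. Another, nearly as bright, had a lower signal at each later stage (1828.6, 1420.5 and 1233.9, 1.48-fold lower on E60 than on E40), and a dim one read 127.7, 261.7 and 95.6, past 2-fold upward and then downward. SRSF12, a relative of SRSF10, read 568.9, 504.5 and 449.1.

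Genes of hnRNP proteins had the lowest median range of the 6 classes. The ratio of the highest to the lowest signal had a median of 1.21-fold, and it was under 1.5-fold in 14 of 17 genes. HNRNPA1, which opposes exon use at many sites, read 12067.1, 12369.3 and 10194.2. HNRNPA2B1, its close relative, read 9860.1, 10184.0 and 10583.1. HNRNPD, also known for binding unstable mRNA, read 10160.1, 9839.6 and 9315.6. HNRNPK, HNRNPC and HNRNPA3 had ranges of 1.1-fold, 1.08-fold and 1.09-fold, the first reading 7326.2, 8061.8 and 7573.8. The second probe set of HNRNPK was lowest on E50 (3216.9, 2859.0 and 3662.5). From E40 to E50, 11 of 17 were above 0 with a median of 0.08. After quantile normalization 5 were above 0, where 3865 of 6192 measured genes were, and the class stood 0.17 under all genes. The class thus has no direction that holds over the scalings.

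HNRNPH2 was the hnRNP gene with the largest difference upward. It read 386.6 (E40), 441.5 (E50) and 698.7 (E60), 1.81-fold higher on E60 than on E40, and its second, dim probe set read 26.8, 28.5 and 43.1, under the floor on E40. With the arrays at equal medians HNRNPH2 passed 2-fold (2.24-fold). Its paralogues read otherwise. HNRNPH1 was highest on E40 (3278.4, 2381.4 and 2800.0), HNRNPH3 was lowest on E60 (4239.9, 3828.5 and 2932.3), and HNRNPF was nearly level (4225.1, 4861.6 and 4984.1). HNRNPL, which binds CA-rich RNA, had a higher signal at each later stage (5343.7, 5885.6 and 6764.3). HNRNPDL, the relative of HNRNPD, read 4741.1, 5780.8 and 3830.2 and was 1.51-fold lower on E60 than on E50, but its second probe set did not show this (3978.6, 5169.0 and 5066.4). HNRNPAB, HNRNPM, HNRNPR and HNRNPUL1 had ranges of 1.39-fold, 1.29-fold, 1.18-fold and 1.04-fold.

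Genes of RBM proteins included RBM5, whose log2 fold change from E40 to E50 (-0.90) was the lowest of the 81 after HNRNPU. RBM5, a regulator of exon use in apoptosis genes, read 4788.8 (E40), 2564.6 (E50) and 2747.6 (E60) and was 1.87-fold below E40 on E50, just inside 2-fold. After quantile normalization it passed 2-fold (2.08-fold). Its second probe set passed 2-fold on the deposited scale (204.1, 86.1 and 72.7, 2.37-fold lower). RBM6, a related protein, read 779.5, 635.3 and 594.2. RBM25, which binds the U1 snRNP, read 800.7 (E40), 473.0 (E50) and 555.7 (E60) and was 1.69-fold lower on E50. RBM39, a U2AF-like protein, read 4504.1, 3883.9 and 3904.4. A second bright probe set of RBM39 read 3061.8, 2101.3 and 3232.1, 1.46-fold below E40 on E50 and 1.54-fold over E50 on E60. RBM23, a close relative of RBM39, read 1148.0, 771.4 and 745.9, 1.54-fold lower on E60 than on E40.

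RBM26 read 2250.2, 1501.0 and 2159.6 and returned on E60, while another of its probe sets read 308.3, 163.2 and 113.2 and did not. RBM3, a protein induced by cold that acts on translation, was level at 7052.0, 7477.6 and 6423.4. RBM8A is part of the exon junction complex, which splicing leaves on mRNA, and read 2235.7, 2236.4 and 1733.6. Its second probe set was highest on E50 (752.7, 1071.3 and 757.8). RBM17, which acts at the start of splicing, was highest on E50 (578.4, 774.9 and 583.4). RBM18 had a higher signal at each later stage (688.1, 712.3 and 1043.2, 1.52-fold over E40 on E60), and its second probe set did the same (378.8, 492.5 and 573.8). RBM42 read 1260.4, 1481.4 and 1755.7. The other 8 genes of the class (RBM4, RBM7, RBM12B, RBM15B, RBM19, RBM28, RBM34 and RBM48) stayed within 1.5-fold over the 3 stages. By median the class stood at 0.00 from E40 to E50 and -0.13 from E40 to E60.

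Probe sets of a gene on the same array show how far probes differ, and hold nothing of the spread between litters. Of the 81 genes, 31 had several probe sets, and in 28 of them at least 2 lay above the floor on every array. The log2 fold changes of the brightest and each other probe set differed with an SD of 0.68 from E40 to E50, 0.58 from E50 to E60 and 0.51 from E40 to E60, over 43 differences. Their median size was 0.33, 0.35 and 0.22. The SNRPA1 pair stood at 0.40 and -3.14 from E40 to E50. Without SNRPA1, left out after its values were seen, the SDs were 0.43, 0.54 and 0.42. All such probe sets had the same sign in 14 of 28 genes from E40 to E50, in 11 from E50 to E60 and in 19 from E40 to E60. Of all 1544 genes with such probe sets, 59.2%, 52.5% and 60.9% had the same sign throughout. HNRNPU, with its single probe set, is not among the 28.

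**Figure D3:**
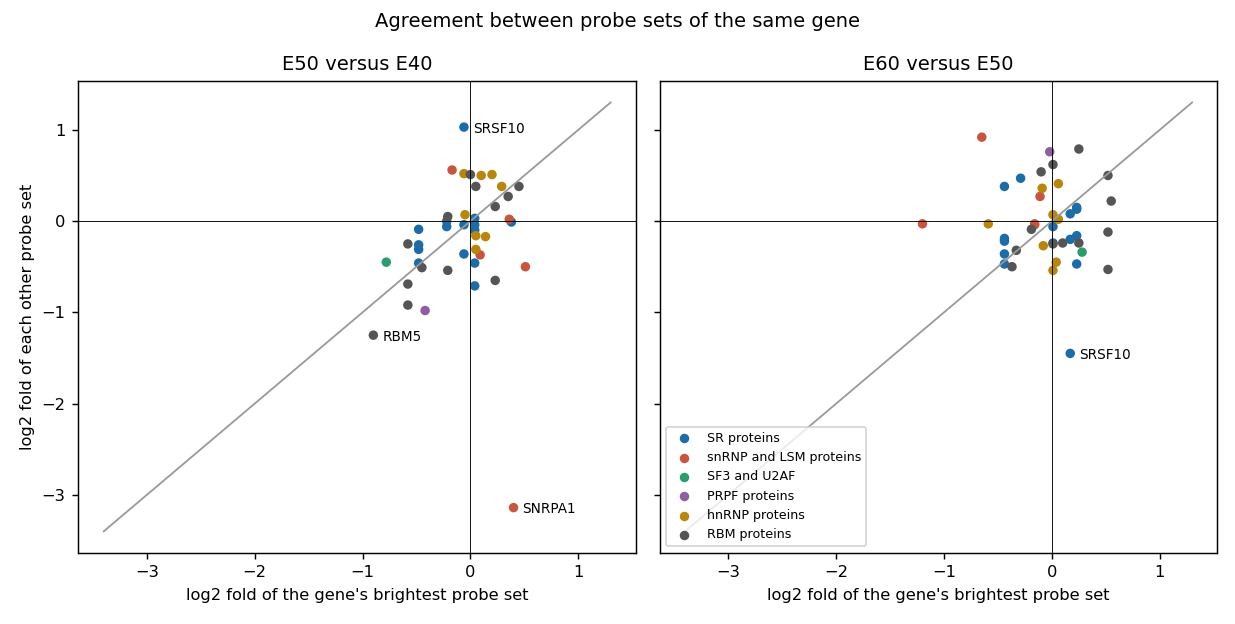
Log2 fold changes of each other probe set (vertical axis) against that of the gene's brightest probe set (horizontal axis) for the 28 splicing factor genes with at least 2 probe sets above the floor on every array, from E40 to E50 and from E50 to E60. The diagonal marks equal values, and other probe sets past 2-fold are labelled. The probe set of SNRPA1 at -3.14 lies farthest from the diagonal.

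Splicing genes outside the 81 were read from 5 lists. Of 31 named genes of other spliceosome proteins, 1 was lower by over 2-fold from E40 to E50 and none higher (7.98% and 2.73% of all genes). Again 1 was lower and none higher from E50 to E60 (1.75% and 4.37%), and from E40 to E60, 2 of 30 measured were lower and none higher (7.21% and 4.44%). The median was 0.15 from E40 to E50 and -0.14 from E50 to E60. LUC7L3, a U1 snRNP-associated protein, was the first of these and read 4489.7 (E40), 1404.2 (E50) and 1888.4 (E60), 3.2-fold below E40 on E50 and 2.38-fold lower on E60. ZRSR2, which recognises the end of minor introns, read 90.7, 93.0 and 14.8, with E60 under the floor, so it was at least 4.26-fold lower on E60 than on E50. SF1 reached the floor on E50 alone, and no fold is given for it. Genes of 6 exon junction complex proteins and of 10 proteins of snRNP assembly by the SMN complex had medians of 0.14 and 0.15 from E40 to E50 and of -0.16 and -0.17 from E50 to E60. The only call among these 16 was GEMIN6 of the SMN complex, 2.15-fold lower on E60 than on E40 (472.4, 390.8 and 220.1).

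Regulators of alternative splicing were read next. Of 21 named, 3 were lower by over 2-fold from E40 to E50 and none higher (14.3% called, against 10.7% of all genes). From E50 to E60, 3 were higher and none lower (14.3%, against 6.12%), and from E40 to E60 none was higher and 2 lower (9.52%, against 11.7%). PTBP3, a relative of the exon repressor PTBP1, read 862.0 (E40), 250.4 (E50) and 572.1 (E60), which is 3.44-fold lower and then 2.28-fold higher. Its second probe set read 187.1, 97.0 and 101.2 and did not show the return. MBNL3, a muscleblind protein, read 1547.8, 675.1 and 569.7 and was 2.29-fold below E40 on E50. CIRBP, a cold-induced RNA-binding protein, read 1121.7, 492.6 and 422.1 and was 2.28-fold lower. All of these dropped where the muscle and keratinised epithelium markers did, whose part was not tested.

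The regulators higher on E60 than on E50 were KHDRBS3, PTBP3 and CELF4. KHDRBS3, a relative of Sam68, read 294.8, 170.0 and 566.0 (3.33-fold higher). CELF4, an RNA-binding protein best known from neurons, read 143.4, 103.0 and 214.9 (2.09-fold higher). Some regulators with epithelial or general roles differed little. ESRP1, which sets the epithelial pattern of exons, read 4587.7, 4330.1 and 3826.8, PTBP1 read 4875.4, 5368.2 and 4918.2, and TRA2B, an SR-like activator, read 5248.9, 5434.6 and 4566.7. RBFOX2, which binds near alternative exons, was highest on E40 (3538.5, 2029.3 and 2106.4), as was TRA2A, the relative of TRA2B (2065.9, 1155.2 and 1519.7).

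Kinases that phosphorylate SR proteins were read from 6 genes beside PRPF4B. From E40 to E50, 2 of 6 were lower and none higher, where 7.98% of all genes were lower, and from E50 to E60, 1 was higher and none lower, where 4.37% were higher. CLK1 and CLK4, of the CLK family, were below E40 on E50 by 2.18-fold and 2.12-fold. CLK1 read 3845.4 (E40), 1762.8 (E50) and 2370.1 (E60), and CLK4 832.1 (E40), 393.2 (E50) and 1000.0 (E60), so CLK4 rose 2.54-fold from E50 to E60. CLK2 read 966.9, 1016.1 and 704.1, CLK3 read 408.2, 357.2 and 320.6 and DYRK1A read 1918.8, 1809.5 and 1562.1, none of them called. HIPK1, a nuclear kinase listed with them, read 1325.1, 1300.1 and 1565.5.

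**Figure D4:**
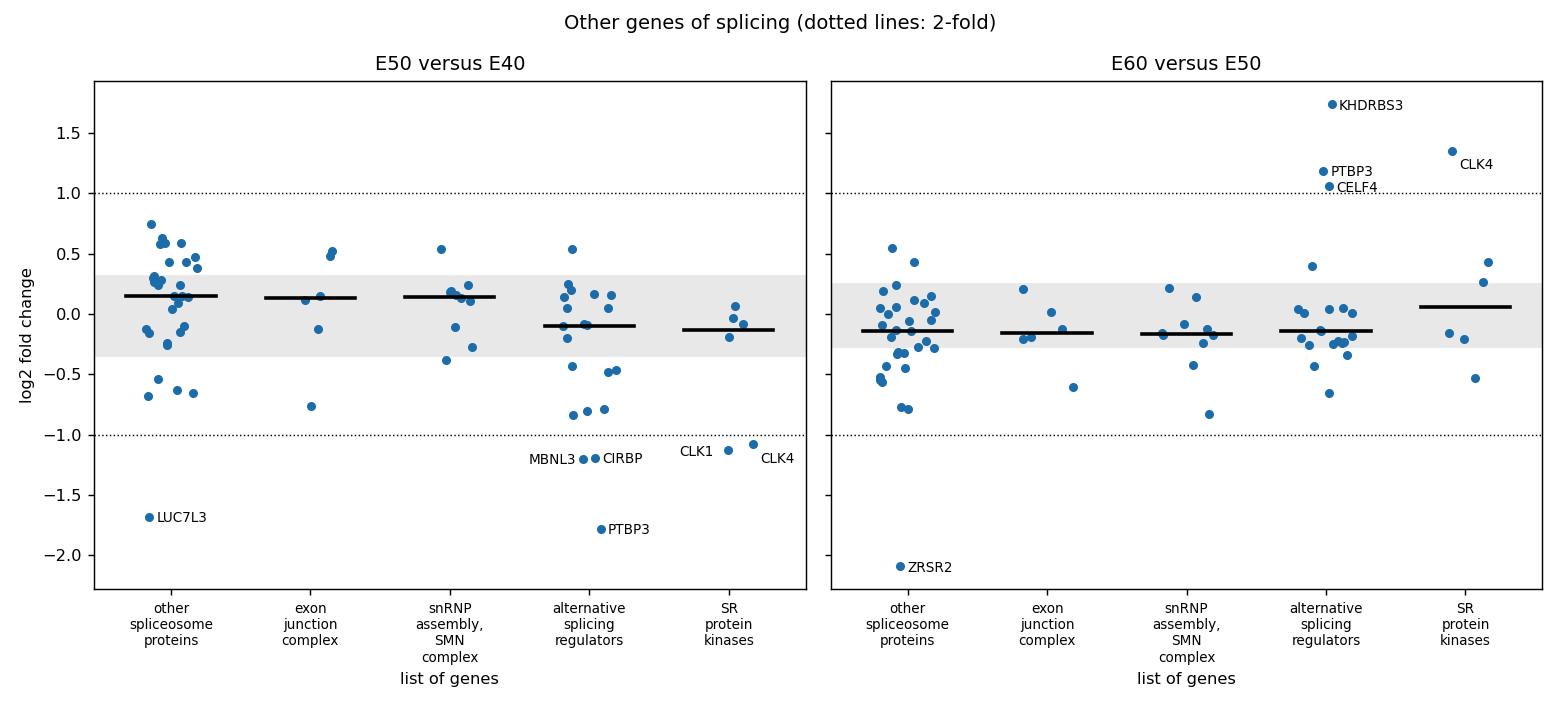
Log2 fold changes (vertical axis) of splicing genes outside the 81, in 5 lists (horizontal axis), from E40 to E50 and from E50 to E60. Points are genes, black bars list medians, the grey band the quartiles of all genes, and dotted lines mark 2-fold. LUC7L3, PTBP3, MBNL3, CIRBP, CLK1 and CLK4 lie below the lower line from E40 to E50, and KHDRBS3, CLK4, PTBP3 and CELF4 above the upper one from E50 to E60. The point of ZRSR2 from E50 to E60 and the points of SF1 in both panels are bounds.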

How the data were processed

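RNA of pooled tooth germs on E40, E50 and E60 had been labelled with the GeneChip 3'IVT Express kit and hybridised to the Porcine Genome Array, with a single array for each stage. MAS 5.0 signals were computed by the authors in GeneSpring (MAS5 in the submitters' processing notes), who deposited log2 values, used here without further transformation. The mean signal with 2% left out at each end was checked and was 500.1 on each array. The table holds 24123 probe sets, from which 124 array controls were removed. The platform annotation gives 1 symbol to 10069 of the rest, several to 198 and none to 13732. All 81 genes matched the RefSeq table of Sscrofa11.1 by gene ID, with 0 symbols changed.

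Signals under the 25th percentile of an array were raised to it, folds with both signals under it were left out, and a fold against a raised signal is a bound. Calls are over 2-fold. No test was possible with 1 array a stage, and the number of arrays limits the precision. Detection calls were not used here. The genes, lists and rules were chosen with earlier results of these data known. The naming rule took, in each class, every gene called, the 3 with the highest mean log2 signal and any gene with probe sets called in opposite directions in a pair (there was none), and, in each other list of splicing genes, up to 8 genes called. These genes are SRSF2, SRSF7, SRSF9, LSM6, SNRPD1, SNRPD3, SNRPG, SF3A3, SF3B1, SF3B6, PRPF19, PRPF4, PRPF4B, HNRNPA1, HNRNPA2B1, HNRNPD, HNRNPU, RBM3, RBM39 and RBM5, with LUC7L3, ZRSR2, GEMIN6, PTBP3, MBNL3, CIRBP, KHDRBS3, CELF4, CLK1 and CLK4 from the other lists. Every other splicing gene in the text, such as SNRPA1, SRSF10, HNRNPH2 and ESRP1, was chosen after its values were seen. Calculations used Python 3.11.15, numpy 2.4.6 and pandas 2.3.3 and were tested on simulated data. The alternatives were 12 in number: 3 floors, 3 scalings, 3 choices of probe set, a range of signals and 2 thresholds.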

Additional observations from a re-analysis of the deposited data

How the results depend on the processing

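The counts of genes called kept to within 1.5 times their value in most settings. The number lower from E40 to E50, 1 as reported, was 2 after quantile normalization, which added RBM5, and 2 with each gene as the mean of its probe sets, which added SNRPA1. The number lower from E50 to E60, 1 as reported, was 0 with probe sets averaged, 0 with the brightest probe set on E40 alone and 0 at 3-fold, since LSM6 lost its call. The number lower from E40 to E60, 1 as reported, was 2 with probe sets averaged, which added SNRPA1, and 0 at 3-fold. With the arrays at equal medians, 1 gene, HNRNPH2, was higher from E40 to E60. At 1.5-fold the counts of higher genes were 2 in each pair, and those of lower genes 5 from E40 to E50, 4 from E50 to E60 and 7 from E40 to E60. The median log2 fold change of the 81 genes moved by over 0.1 in 3 of 30 recomputed values. It was 0.44 from E40 to E50 and 0.18 from E40 to E60 with the arrays at equal medians, and -0.03 from E50 to E60 with scaling to 13 housekeeping genes. Equal medians moved the median of all genes by 0.39 from E40 to E50, -0.08 from E50 to E60 and 0.31 from E40 to E60, housekeeping genes by -0.10, 0.14 and 0.04, and quantile normalization by 0.09, -0.03 and 0.08. Class medians moved by over 0.1 in 26 of 180 recomputed values, of which 12 were with equal medians and 6 with housekeeping genes. No named gene moved by over 1.5-fold in 360 recomputed values over the floors and scalings. Most of these values could not have moved so far. Equal medians and housekeeping genes shift every gene alike, by at most 0.39. The named genes lie above the floor, so leaving it out or using the highest of the 3 floors changes nothing. HNRNPU was called from E40 to E50 and from E40 to E60 in every setting at 2-fold. With its single probe set, the choices of probe set could not change this. No replicate could be left out, and no paired analysis was possible because each stage has 1 array.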

Other observations

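Markers of other cell types gave the following values on the same arrays. Of 14 skeletal muscle markers, 14 were lower by over 2-fold from E40 to E50, with a median log2 fold change of -6.06, and 14 from E40 to E60, and none was at the lowest deposited value on any array. On E50 2 of the 14 were under the floor and on E60 6 were, so their folds against E40 are bounds. Of 5 measured markers of keratinised epithelium (IVL, SPRP, CST6, FABP5 and KRT10), 4 were lower from E40 to E50, and the summed signal of the 6 named went from 15059.3 on E40 to 3729.2 on E50 and 4198.7 on E60, with KRT1 under the floor on every array. The odontoblast genes DSPP and DMP1 summed to 24.2, 83.6 and 4244.1. Both were under the floor on E40, and DMP1 on E50 as well. Endothelial markers summed to 2270.2, 1163.0 and 1874.1, erythroid ones to 2304.0, 1933.0 and 2545.6, macrophage ones to 153.3, 99.0 and 141.7, and neuronal ones to 731.0, 211.7 and 213.3, of which STMN2 made up most on E40 (459.6, 20.0 and 7.8). The 13 housekeeping genes had medians of 0.02 from E40 to E50, -0.05 from E50 to E60 and -0.07 from E40 to E60.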
